A study of Homo sapiens with 8 samples.

Results

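The genes described here are 49 genes of the interferon response in Hs578T breast cancer cells. They were chosen by symbol from a list of interferon receptors, their kinases and transcription factors, feedback inhibitors, RNA sensors and interferon-induced effectors. The list was drawn up with earlier results of these data known, so its shares beside those of all genes are descriptive only. All 49 genes were found among the 21077 genes of the table. One of them, IFI27, stayed below the filter on low values (0.5 CPM or more in 2 or more libraries, where CPM is a count scaled to library size), so 48 genes were tested among 15570 genes. Hs578T is an established, estrogen receptor-negative breast cancer cell line. Cells were kept for 48 hours in 25 mM glucose (high glucose, modelling hyperglycemia) or in 5 mM glucose (low glucose, the control), with 4 libraries per group and 8 in all. According to the methods of the study, cells were washed, conditioned in low glucose and then cultured without serum. The labels name no osmotic control for these libraries, so an effect of glucose and one of osmolarity cannot be told apart. All cells came from 1 cell line, and the labels do not say whether the replicates were separate experiments.

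Interferons are secreted proteins that cells release after sensing foreign or misplaced nucleic acid. Type I interferon binds the IFNAR1 and IFNAR2 receptor chains and type II interferon binds IFNGR1 and IFNGR2, which signal through the kinases JAK1, JAK2 and TYK2. STAT2 and IRF9 belong to the transcription factor complex that binds the interferon-stimulated response element (ISRE) of induced genes, while homodimers activated by type II interferon bind a palindromic site called GAS. The induced proteins degrade or edit viral RNA, block viral entry or tag proteins with the ubiquitin-like modifier ISG15, and many are made at a low basal level in cells that see no interferon.

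Normalized signal was read here as CPM, with library sizes scaled by TMM factors. Estimated depth was 10244900 to 11956678 counts in high glucose and 10323776 to 11126112 counts in low glucose, at which 3 counts equal 0.260 to 0.354 CPM. Fold changes are differences of log2(CPM + 1), high glucose minus low glucose, so that those of genes with low values are compressed, and adjusted p values are from limma with Benjamini-Hochberg adjustment over all 15570 genes, passed at 0.05. Among markers of a mesenchymal breast cancer line, VIM and FN1 were at 3567 CPM or more in every library, and the 7 markers of the list summed to 34846 to 36049 CPM in high glucose and 56432 to 60720 CPM in low glucose. The luminal marker EPCAM, the endothelial marker CDH5 and the leukocyte marker LYZ were at 0 in all 8 libraries, and 4 of the 8 leukocyte markers were not in the table used here. The 8 luminal markers summed to 133 to 153 CPM in high glucose and 297 to 316 CPM in low glucose, and the 4 endothelial markers to 7.12 to 8.58 CPM in high glucose and 2.12 to 2.77 CPM in low glucose. Most of the luminal sum was KRT18, with means of 104 CPM in high glucose and 232 CPM in low glucose. KRT8 (17.3 and 49.5 CPM) and GATA3 (20.2 and 21.0 CPM) were also present. Most of the endothelial sum was PECAM1 (5.80 and 2.05 CPM). The leukocyte markers summed to 92.9 to 98.2 CPM in high glucose and 180.4 to 189 CPM in low glucose, nearly all of it from the lysosomal protein CD68. PTPRC, the pan-leukocyte antigen, reached at most 1.08 CPM in any library, and the part of such signal in the results was not tested. In bulk libraries, fewer cells that express a gene and less RNA per cell cannot be told apart.

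Interferon response genes moved in both directions in high glucose. Of the 48 genes tested, 12 were higher and 24 were lower in high glucose, and 12 did not pass. The 36 that passed make 75%, against 72.9% of all genes tested, so passing was about as frequent as in the transcriptome. By direction, 25% of the interferon genes were higher, against 35.7% of all genes, and 50% were lower, against 37.2% of all genes. Summed over the 49 genes, the signal was 1949 to 1984 CPM in high glucose and 2339 to 2397 CPM in low glucose, which is 0.191 to 0.193% of all signal in high glucose and 0.193 to 0.199% in low glucose. The median log2 fold change of the interferon genes was -0.25, and that of all genes was -0.0003. With library totals made equal, which moved the median of all genes by 0.20, 16 interferon genes were higher and 20 were lower, and 7325 of all genes were higher and 4348 were lower (5553 and 5797 as deposited). A log2 fold change of at least 0.58 (about 1.5-fold) in a gene that passed was seen for 6 genes that were higher (12.5%, against 20.3% of all genes) and 18 that were lower (37.5%, against 21.7% of all genes). The groups did not overlap for 33 of the 49 genes, 67.3%, against 66.7% of all genes tested. High glucose lay above low glucose for 11 of them (32.2% of all genes tested did so) and below it for 22 (34.5% of all genes tested).

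**Figure D1:**
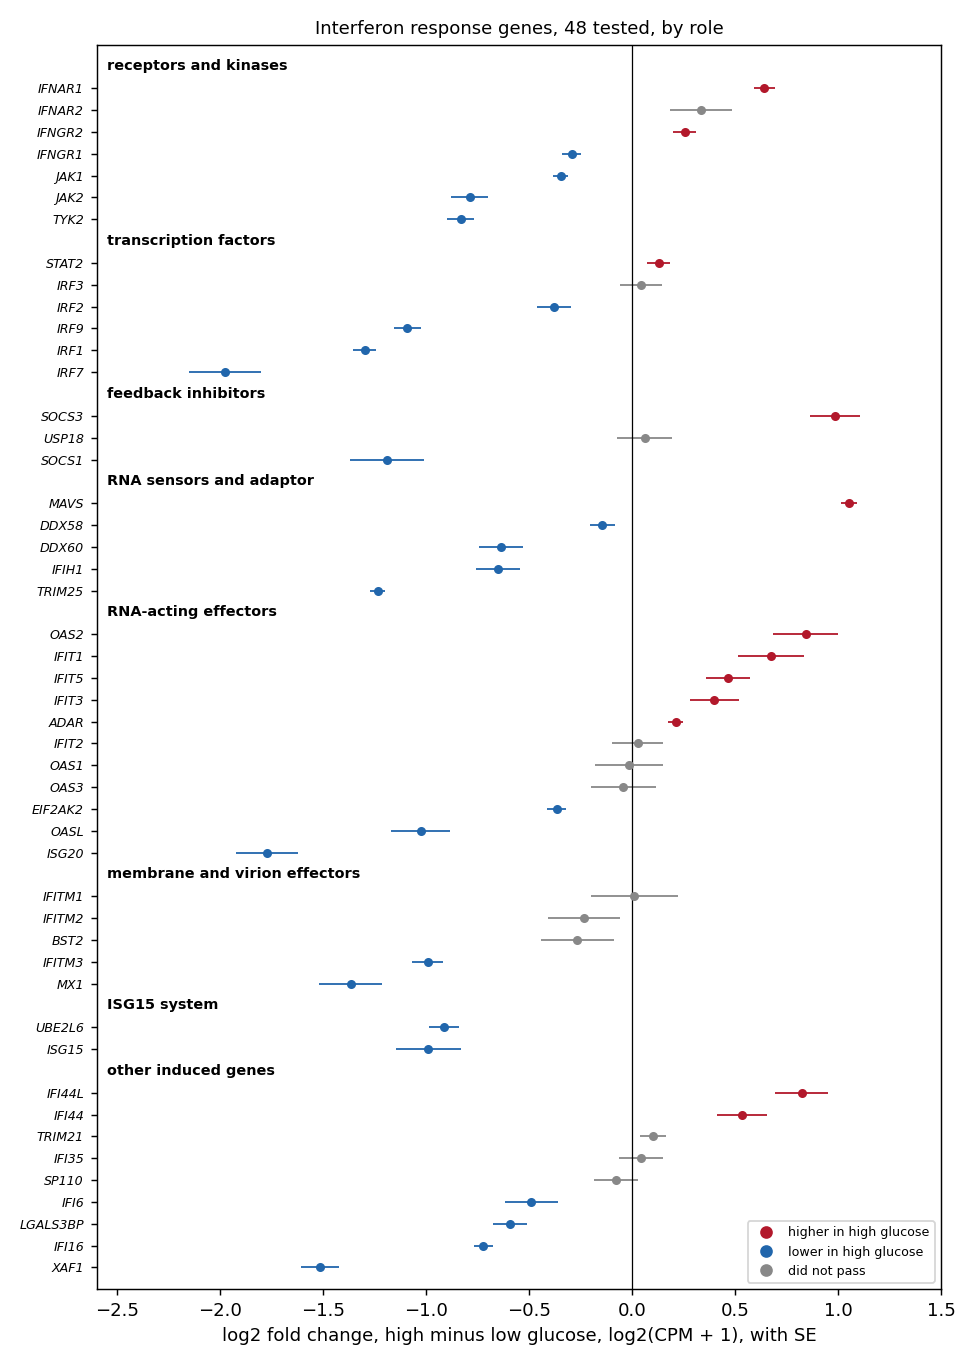
Log2 fold change (high minus low glucose, log2(CPM + 1) scale) of the 48 tested interferon response genes, grouped by role, with points for estimates, bars for the standard error and colors for the call at an adjusted p of 0.05. Values run from -1.98 for IRF7 to 1.05 for MAVS, and most role groups hold genes on both sides of 0.

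The ISRE was used to describe what the promoters of these genes share. The ISRE core, GAAA and again GAAA with 2 bases of any kind between them, was searched on both strands in RefSeq promoter windows of the GRCh38.p14 assembly, from 250 bases before to 50 bases after the start site. Windows were given for 40 of the 49 genes, and 20 of these (50%) held at least 1 ISRE core, against 3.65% of all 27305 windows. The GAS core TTCNNNGAA was held by 8 of the 40 (20%), against 7.88% of all windows. Holding an ISRE core did not go with a single direction. Of the 19 tested genes with a core, 5 were higher (26.3%) and 10 were lower (52.6%) in high glucose. Of the 20 tested genes with a window and no core, 6 were higher (30%) and 11 were lower (55%). Among all genes tested, 35.7% were higher and 37.2% were lower. Other spacings were not searched. Some windows without such a core, among them those of OAS1, DDX58, XAF1, TRIM25 and IFI35, hold GAAA repeats 1 base apart on either strand. A match describes letters and is not evidence that a factor binds there.

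To show this, the 170 bases directly before the start site, written 5′ to 3′ on the strand of the gene, are given for 5 genes that were higher and 4 that were lower in high glucose. These are all 5 higher genes with a core but only 4 of the 10 lower ones. Their split is therefore not that of all genes with a core. Capitals mark complete ISRE cores in either orientation (on the opposite strand GAAA reads TTTC). The 5 genes that were higher were IFIT1 (chr10:89392453-89392622, plus strand), IFIT3 (chr10:89327827-89327996, plus strand), IFIT5 (chr10:89414398-89414567, plus strand), IFI44 (chr1:78649619-78649788, plus strand) and IFI44L (chr1:78620278-78620447, plus strand).
IFIT1: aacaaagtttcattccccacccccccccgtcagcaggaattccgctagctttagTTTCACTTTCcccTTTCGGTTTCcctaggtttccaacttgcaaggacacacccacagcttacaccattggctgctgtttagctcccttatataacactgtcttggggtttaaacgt
IFIT3: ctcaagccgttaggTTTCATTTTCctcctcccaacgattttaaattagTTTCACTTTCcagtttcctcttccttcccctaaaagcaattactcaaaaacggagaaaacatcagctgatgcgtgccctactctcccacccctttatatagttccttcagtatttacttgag
IFIT5: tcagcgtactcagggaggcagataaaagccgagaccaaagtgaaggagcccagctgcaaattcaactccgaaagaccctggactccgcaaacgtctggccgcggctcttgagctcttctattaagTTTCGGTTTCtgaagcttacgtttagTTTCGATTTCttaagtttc
IFI44: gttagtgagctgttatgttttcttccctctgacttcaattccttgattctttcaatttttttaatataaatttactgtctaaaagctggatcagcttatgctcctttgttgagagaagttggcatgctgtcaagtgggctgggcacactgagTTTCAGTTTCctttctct
IFI44L: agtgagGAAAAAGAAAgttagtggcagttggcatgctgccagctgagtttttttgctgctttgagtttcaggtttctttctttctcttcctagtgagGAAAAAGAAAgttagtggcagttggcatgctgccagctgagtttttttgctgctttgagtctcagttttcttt

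The 4 genes that were lower were ISG15 (chr1:1013327-1013496, plus strand), ISG20 (chr15:88638846-88639015, plus strand), IFITM3 (chr11:320861-321030, minus strand) and DDX60 (chr4:168318753-168318922, minus strand). In ISG15 a pair of cores overlap, and the capitals run through both. For ISG20 and DDX60 the start site of the RefSeq window lies inside the annotated span of the gene.
ISG15: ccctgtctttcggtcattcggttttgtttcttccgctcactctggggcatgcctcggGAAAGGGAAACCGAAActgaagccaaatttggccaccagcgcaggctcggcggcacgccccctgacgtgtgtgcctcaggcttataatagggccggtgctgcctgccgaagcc
ISG20: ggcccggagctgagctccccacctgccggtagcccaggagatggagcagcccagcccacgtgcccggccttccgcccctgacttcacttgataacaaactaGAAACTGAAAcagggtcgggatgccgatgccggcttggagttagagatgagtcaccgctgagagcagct
IFITM3: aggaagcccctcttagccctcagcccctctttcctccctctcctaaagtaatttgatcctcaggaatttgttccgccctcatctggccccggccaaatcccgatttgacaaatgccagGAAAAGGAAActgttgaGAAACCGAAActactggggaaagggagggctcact
DDX60: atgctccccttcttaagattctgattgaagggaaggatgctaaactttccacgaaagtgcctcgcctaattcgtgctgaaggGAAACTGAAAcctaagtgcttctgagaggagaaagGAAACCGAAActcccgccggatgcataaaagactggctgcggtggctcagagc

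**Figure D2:**
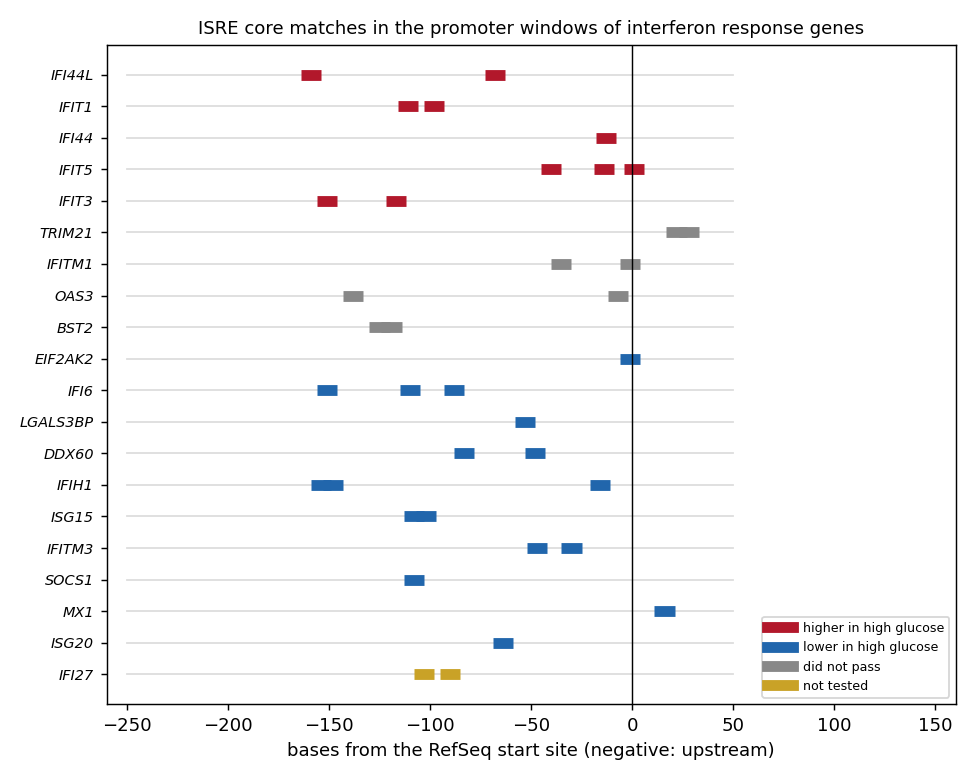
Position of ISRE core matches (bars, 10 bases each) relative to the RefSeq start site, in bases, for the 20 interferon response genes with a match, ordered by fold change and colored by call. Genes of both directions hold matches within 170 bases before the start site; the matches of MX1 and TRIM21 lie after it.

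Of the receptor chains and kinases, IFNAR1 and IFNGR2 were higher and IFNGR1 and the 3 kinases JAK1, JAK2 and TYK2 were lower in high glucose, so chains of 1 receptor pair moved in opposite directions for type II interferon. IFNAR1, a chain of the type I interferon receptor (chromosome 21, 33324395 to 33359864), had 81.8, 87.2, 94.8 and 85.0 CPM in high glucose, against 54.6, 53.2, 56.9 and 57.2 CPM in low glucose (log2 fold change 0.64 ± 0.053 SE, adjusted p = 2.17e-08). Every high-glucose library lay above every low-glucose library. Its partner chain IFNAR2 had 14.2, 13.9, 19.2 and 10.01 CPM in high glucose, against 9.65, 10.01, 11.8 and 12.2 CPM in low glucose and did not pass (log2 fold change 0.34 ± 0.15 SE, adjusted p = 0.0556). High-glucose replicate 4 lay among the low-glucose libraries. IFNAR2 was called higher in 5 of 16 alternatives, among them the fit without that library (0.48, adjusted p = 0.00273; the alternatives ranged up to 0.220). The type II receptor chain IFNGR2 was higher, with 61.3 ± 4.37 CPM in high glucose and 51.2 ± 1.55 CPM in low glucose (mean ± SD, n = 4 each, as for all such pairs; log2 fold change 0.25, adjusted p = 0.000838, and 0.50 with equal library totals). The ligand-binding chain IFNGR1 was lower, with 61.7 ± 2.21 CPM in high glucose and 75.8 ± 2.23 CPM in low glucose (log2 fold change -0.29, adjusted p = 3.81e-05). That call was lost with equal library totals (-0.051, adjusted p = 0.333; the alternatives ranged from 2.94e-05 to 0.333).

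The kinases were lower without overlap between groups. TYK2, the kinase bound to IFNAR1 (chromosome 19, 10350533 to 10380572), had 40.6, 42.5, 39.9 and 34.4 CPM in high glucose, against 69.7, 76.2, 69.2 and 67.8 CPM in low glucose (log2 fold change -0.83 ± 0.066 SE, adjusted p = 1.37e-08). JAK2, the kinase bound to IFNGR2, had 12.05, 10.4, 10.6 and 12.8 CPM in high glucose, against 18.8, 20.7, 21.0 and 21.5 CPM in low glucose (log2 fold change -0.79 ± 0.091 SE, adjusted p = 1.15e-06). Both fell in all 4 high-glucose libraries. JAK1, which serves both receptor types, was lower as well, with 248.8 ± 4.00 CPM in high glucose and 317 ± 14.2 CPM in low glucose (log2 fold change -0.35, adjusted p = 5.93e-07). With equal library totals the fold change of JAK1 shrank to -0.10 (adjusted p = 0.0188).

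Among the 6 transcription factors, IRF7, IRF1, IRF9 and IRF2 were lower and STAT2 was higher. IRF7, which amplifies type I interferon production and had the largest fall among the 48 genes tested on the log2(CPM + 1) scale (chromosome 11, 612555 to 615950), had 1.3, 2.004, 0.859 and 0.720 CPM in high glucose, against 6.97, 7.53, 6.83 and 8.96 CPM in low glucose (log2 fold change -1.98 ± 0.17 SE, adjusted p = 5.01e-08). Even the highest high-glucose library, replicate 2, lay far below the lowest low-glucose library. IRF1, a factor induced by type II interferon (chromosome 5, 132481609 to 132490773), had 28.9, 27.9, 29.4 and 27.0 CPM in high glucose, against 76.7, 70.3, 69.1 and 68.3 CPM in low glucose (log2 fold change -1.298 ± 0.056 SE, adjusted p = 1.26e-11). IRF9, the DNA-binding subunit of the ISRE-binding complex (chromosome 14, 24161265 to 24166565), had 24.4, 21.7, 20.8 and 21.7 CPM in high glucose, against 45.3, 49.4, 48.9 and 49.5 CPM in low glucose (log2 fold change -1.09 ± 0.065 SE, adjusted p = 5.18e-10). The IRF1 and IRF9 windows each held 1 GAS core and no ISRE core.

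STAT2, the partner of IRF9 in that complex, had 87.0, 90.3, 91.9 and 92.9 CPM in high glucose, against 77.8, 78.3, 92.9 and 82.5 CPM in low glucose (log2 fold change 0.13 ± 0.055 SE, adjusted p = 0.0466). The groups overlapped at low-glucose replicate 3, and the call was lost in 8 of 16 alternatives (adjusted p = 3.02e-05 to 0.140). With equal library totals the fold change of STAT2 was 0.37. The 2 subunits thus differed in direction, with log2 fold changes of -1.09 for IRF9 and 0.13 for STAT2, although the difference between them was not tested. IRF2, a repressor of IRF1 targets, was lower, with 20.9 ± 2.48 CPM in high glucose and 27.4 ± 1.06 CPM in low glucose (-0.38, adjusted p = 0.000786), a call lost with equal library totals (-0.14, adjusted p = 0.131; the alternatives ranged from 0.000216 to 0.131). IRF3, the factor activated directly downstream of nucleic acid sensors, had 50.8 ± 8.18 CPM in high glucose and 49.1 ± 6.24 CPM in low glucose and did not pass (adjusted p = 0.72), but was called higher with equal totals (0.28, adjusted p = 0.0202; the alternatives ranged up to 0.995).

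**Figure D3:**
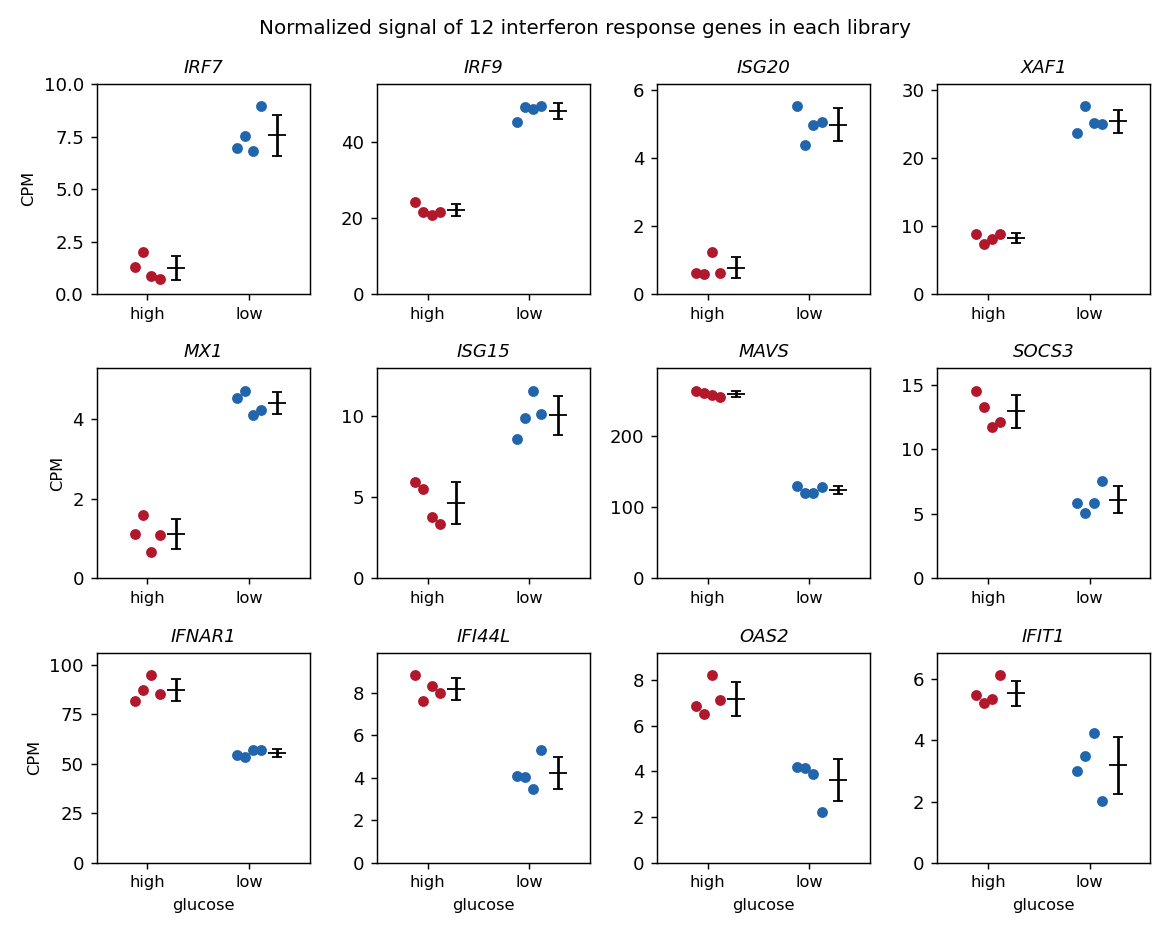
Normalized signal (CPM, linear axes from 0) of 12 interferon response genes in each of the 8 libraries, high glucose left of low glucose, with each point a library and black marks for the mean and SD of 4 libraries. The 6 genes that fell (IRF7, IRF9, ISG20, XAF1, MX1 and ISG15) and the 6 that rose (MAVS, SOCS3, IFNAR1, IFI44L, OAS2 and IFIT1) show no overlap between groups.

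The feedback inhibitors SOCS1 and SOCS3, which block JAK kinases, moved apart. SOCS1 (chromosome 16, 11254417 to 11256204) had 1.13, 1.20, 0.859 and 0.540 CPM in high glucose, against 2.44, 4.72, 3.68 and 2.95 CPM in low glucose (log2 fold change -1.19 ± 0.18 SE, adjusted p = 2.17e-05). SOCS3 (chromosome 17, 78356778 to 78360925) had 14.6, 13.3, 11.7 and 12.2 CPM in high glucose, against 5.87, 5.06, 5.85 and 7.55 CPM in low glucose (log2 fold change 0.98 ± 0.12 SE, adjusted p = 2.74e-06). SOCS3 was higher and SOCS1 lower in all 4 high-glucose libraries. USP18, which removes ISG15 from proteins and blocks signaling at IFNAR2, had 4.98 ± 0.460 CPM in high glucose and 4.76 ± 0.772 CPM in low glucose and did not pass (adjusted p = 0.692).

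The RNA sensing genes IFIH1, DDX60 and TRIM25 were lower in high glucose while the adaptor MAVS was higher, and the sensor DDX58 was called lower in only 8 of 16 alternatives. MAVS, the mitochondrial adaptor through which the sensors signal (chromosome 20, 3846834 to 3876118), had 264, 261, 258 and 255 CPM in high glucose, against 129, 119.5, 121 and 129 CPM in low glucose (log2 fold change 1.05 ± 0.039 SE, adjusted p = 2.1e-12), 2.08-fold higher by group means. It was the largest rise among the 48 genes on the log2(CPM + 1) scale. IFIH1, the sensor MDA5 for long double-stranded RNA (chromosome 2, 162267074 to 162318684), had 4.77, 5.91, 5.63 and 5.49 CPM in high glucose, against 9.52, 8.88, 9.21 and 8.84 CPM in low glucose (log2 fold change -0.65 ± 0.11 SE, adjusted p = 6.28e-05). DDX60, a helicase linked to RNA sensing (chromosome 4, 168216294 to 168325979), had 9.01, 11.4, 10.9 and 10.8 CPM in high glucose, against 15.5, 16.3, 15.7 and 20.4 CPM in low glucose (log2 fold change -0.64 ± 0.11 SE, adjusted p = 6.95e-05). TRIM25, a ubiquitin ligase that activates the sensor RIG-I (chromosome 17, 56887909 to 56914049), had 124, 117, 116 and 121 CPM in high glucose, against 280.3, 280.1, 290.1 and 278 CPM in low glucose (log2 fold change -1.24 ± 0.037 SE, adjusted p = 2e-13). For each of these 3 genes the groups were separate, and the fold change of DDX60 was -0.41 with equal library totals. RIG-I itself (DDX58) had 32.2, 34.4, 34.3 and 35.5 CPM in high glucose, against 37.2, 38.9, 39.9 and 35.3 CPM in low glucose (log2 fold change -0.14 ± 0.061 SE, adjusted p = 0.0432). The groups overlapped by the highest high-glucose library. The DDX58 call was lost in 8 of 16 alternatives and the direction turned to higher with equal library totals (0.094, adjusted p = 0.190; the alternatives ranged from 0.0235 to 0.476).

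Among effectors that act on RNA, OAS2 and members of the IFIT family were higher and ISG20 and OASL were lower. The OAS proteins make the oligoadenylates that switch on ribonuclease L, and IFIT proteins bind viral RNA ends. OAS2 had 6.85, 6.51, 8.21 and 7.11 CPM in high glucose, against 4.21, 4.16, 3.90 and 2.24 CPM in low glucose (log2 fold change 0.84 ± 0.16 SE, adjusted p = 0.000185). IFIT1 had 5.46, 5.21, 5.35 and 6.12 CPM in high glucose, against 2.99, 3.49, 4.23 and 2.005 CPM in low glucose (log2 fold change 0.67 ± 0.16 SE, adjusted p = 0.00147). Both were higher without overlap, though below 10 CPM in every library. IFIT5 had 20.6, 18.4, 19.4 and 19.5 CPM in high glucose, against 15.2, 10.8, 15.5 and 14.4 CPM in low glucose (log2 fold change 0.47 ± 0.10 SE, adjusted p = 0.000931). IFIT3 had 14.9, 15.8, 17.4 and 13.9 CPM in high glucose, against 9.30, 10.46, 12.9 and 13.8 CPM in low glucose (log2 fold change 0.40 ± 0.12 SE, adjusted p = 0.00732). The IFIT3 groups were close to touching, at 13.9 CPM in high-glucose replicate 4 and 13.8 CPM in low-glucose replicate 4, and the fold change was 0.63 with equal library totals. IFIT2, of the same family, had 5.63, 5.41, 5.82 and 6.75 CPM in high glucose, against 5.42, 6.41, 4.88 and 6.49 CPM in low glucose, overlapped throughout and did not pass (log2 fold change 0.03 ± 0.13 SE, adjusted p = 0.859).

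ISG20, an exonuclease that degrades RNA (chromosome 15, 88635632 to 88656483), had 0.607, 0.601, 1.24 and 0.630 CPM in high glucose, against 5.53, 4.39, 4.98 and 5.07 CPM in low glucose (log2 fold change -1.77 ± 0.15 SE, adjusted p = 3.58e-08). High-glucose replicate 3 was about double the other high-glucose libraries and still below every low-glucose library. OASL, an OAS-like protein without enzyme activity (chromosome 12, 121017761 to 121039246), had 0.173, 0.200, 0.286 and 0.360 CPM in high glucose, against 1.44, 1.57, 1.95 and 1.297 CPM in low glucose (log2 fold change -1.03 ± 0.15 SE, adjusted p = 1.13e-05). Its high-glucose values went down to 2 counts, so the size of its fall is poorly measured. All of these values were below 0.5 CPM, so OASL met the filter only through low glucose. Its call, counted above among the lower genes, is thus no independent support for a fall. OAS1 (4 to 10 counts per library) and OAS3 (2 to 6 counts) were low in both groups, at 0.382 to 1.002 CPM in high glucose and 0.450 to 0.943 CPM in low glucose for OAS1, and at 0.180 to 0.601 CPM in high glucose and 0.221 to 0.562 CPM in low glucose for OAS3. Neither passed (OAS1 log2 fold change -0.01 ± 0.16 SE, adjusted p = 0.939, and OAS3 log2 fold change -0.04 ± 0.16 SE, adjusted p = 0.815). The double-stranded RNA-activated kinase PKR (EIF2AK2) was lower, with 98.1 ± 5.91 CPM in high glucose and 127 ± 3.69 CPM in low glucose (-0.37, adjusted p = 4.1e-06), and its fold change shrank to -0.12 with equal library totals (adjusted p = 0.0345). The RNA-editing deaminase ADAR was higher, with 241 ± 7.64 CPM in high glucose and 208 ± 6.52 CPM in low glucose (0.21, adjusted p = 0.000115), and its fold change was 0.46 with equal library totals.

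Of the effectors that act at membranes or on viral particles, IFITM3 and MX1 were lower in high glucose and none was higher. IFITM3, which blocks viral entry at endosomes (chromosome 11, 319676 to 320860), had 59.7, 59.2, 50.01 and 46.8 CPM in high glucose, against 105, 118, 102 and 106 CPM in low glucose (log2 fold change -0.99 ± 0.074 SE, adjusted p = 7.31e-09). IFITM2 had 2.51, 1.51, 2.58 and 1.37 CPM in high glucose, against 2.19, 1.91, 2.68 and 3.19 CPM in low glucose (log2 fold change -0.23 ± 0.18 SE, adjusted p = 0.244). IFITM1 had 0.872, 0.598, 0.283 and 0.258 CPM in high glucose, against 0.915, 0.908, 0.145 and 0.119 CPM in low glucose (log2 fold change 0.01 ± 0.21 SE, adjusted p = 0.964). IFITM1 and IFITM2 overlapped between groups and did not pass, and 4 of the 8 IFITM1 values were below 3 counts. The 3 genes are near-identical neighbors, and their estimated counts were not whole numbers in 7 or 8 of 8 libraries, so reads can be shared between them and single values are uncertain. MX1, a dynamin-like GTPase that traps viral nucleocapsids (chromosome 21, 41420558 to 41459214), had 1.13, 1.603, 0.668 and 1.08 CPM in high glucose, against 4.54, 4.72, 4.12 and 4.25 CPM in low glucose (log2 fold change -1.37 ± 0.15 SE, adjusted p = 7.98e-07). Tetherin (BST2), which holds budding virions at the cell surface, had 0.726 ± 0.346 CPM in high glucose and 1.06 ± 0.327 CPM in low glucose and did not pass (adjusted p = 0.187).

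Both genes of the ISG15 system were lower. ISG15, the ubiquitin-like modifier (chromosome 1, 1013497 to 1014540), had 5.98, 5.51, 3.82 and 3.33 CPM in high glucose, against 8.63, 9.89, 11.6 and 10.1 CPM in low glucose (log2 fold change -0.99 ± 0.16 SE, adjusted p = 3.56e-05). UBE2L6, the conjugating enzyme for ISG15 (chromosome 11, 57551662 to 57567935), had 27.3, 28.7, 26.7 and 33.2 CPM in high glucose, against 59.0, 55.2, 55.6 and 51.6 CPM in low glucose (log2 fold change -0.91 ± 0.071 SE, adjusted p = 1.18e-08). All 4 high-glucose libraries lay below all low-glucose libraries for both. As given above, the deconjugating protease USP18 did not pass.

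The remaining induced genes split as well. XAF1, a proapoptotic zinc finger protein (chromosome 17, 6755447 to 6775647), had 8.76, 7.29, 8.11 and 8.83 CPM in high glucose, against 23.8, 27.7, 25.2 and 25.0 CPM in low glucose (log2 fold change -1.52 ± 0.090 SE, adjusted p = 5.04e-10). IFI16, a nuclear DNA sensor (chromosome 1, 158999976 to 159055151), had 153, 155, 164 and 167 CPM in high glucose, against 268, 245, 265 and 277 CPM in low glucose (log2 fold change -0.72 ± 0.044 SE, adjusted p = 7.37e-10). LGALS3BP, a secreted galectin-binding glycoprotein, had 58.5, 61.9, 49.4 and 44.4 CPM in high glucose, against 77.5, 85.2, 80.8 and 79.1 CPM in low glucose (log2 fold change -0.59 ± 0.083 SE, adjusted p = 1.01e-05). The 3 genes were lower without overlap between groups, and with equal library totals the fold change was -0.48 for IFI16 and -0.35 for LGALS3BP. IFI6, a small membrane protein, was lower with an overlap, with 8.31 ± 1.27 CPM in high glucose and 12.1 ± 1.86 CPM in low glucose (-0.49, adjusted p = 0.00344), a call lost with equal library totals (-0.27, adjusted p = 0.0766; the alternatives ranged from 0.000870 to 0.0766).

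IFI44L had 8.84, 7.62, 8.30 and 8.02 CPM in high glucose, against 4.10, 4.05, 3.47 and 5.31 CPM in low glucose (log2 fold change 0.82 ± 0.13 SE, adjusted p = 3.09e-05), and IFI44, its neighbor and paralog, had 6.15, 7.02, 7.16 and 5.85 CPM in high glucose, against 4.10, 3.71, 4.66 and 4.36 CPM in low glucose (log2 fold change 0.53 ± 0.12 SE, adjusted p = 0.00106). Both were higher in all 4 high-glucose libraries. TRIM21, an antibody-binding ubiquitin ligase, had 26.8 ± 1.04 CPM in high glucose and 24.9 ± 0.894 CPM in low glucose (adjusted p = 0.172), IFI35 had 13.9 ± 1.87 CPM in high glucose and 13.4 ± 1.01 CPM in low glucose (adjusted p = 0.724) and the nuclear body protein SP110 had 9.74 ± 0.645 CPM in high glucose and 10.4 ± 1.24 CPM in low glucose (adjusted p = 0.531), and none of the 3 passed. IFI27 had 0.347, 0.301, 0.191 and 0 CPM in high glucose, against 0.111, 0.225, 0.325 and 0.472 CPM in low glucose, at most 0.472 CPM, and was not tested. High-glucose replicate 4 was at 0, which allows up to 0.270 CPM at 3 counts.

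Several of these genes lie near each other on hg38 (RefSeq positions), and genes outside the 49 that lie between them were not considered. Among the close neighbors described here, at most 58730 bases apart, no pair passed in opposite directions. Genes of the list that lie farther apart did, such as SOCS3 (higher) and LGALS3BP (lower) on chromosome 17. On chromosome 1, IFI44L and IFI44 are separated by 3643 bases and both were higher. On chromosome 10 the 4 IFIT genes span 89302046 to 89420997, and IFIT3, IFIT1 and IFIT5 were higher and IFIT2, at one end, did not pass. On chromosome 12, OAS2 was higher, and its neighbors OAS3, 5267 bases away, and OAS1 did not pass. On chromosome 11, IFITM2, IFITM1 and IFITM3 lie between 307816 and 320860, and only IFITM3 of the 3 passed, as lower. On chromosome 21, IFNAR1 and IFNGR2, 43017 bases apart, were both higher, and IFNAR2, 58730 bases from IFNAR1, did not pass. Of the 49 genes, 12 had counts that were not whole (beyond 0.005 counts) in at least 1 library, among them IRF1, IRF3, IRF9, IFNAR2, XAF1 and the 3 IFITM genes, so reads of these may have been split with other genes.

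Genes of the pathway outside the 49 were also measured, and single values in parentheses are their log2 fold changes. Of 9 interferon ligand genes searched (IFNA1, IFNA2, IFNB1, IFNE, IFNK, IFNG, IFNL1, IFNL2 and IFNL3), only IFNE was in the table used here, with 0.607, 0.902, 0.764 and 0.720 CPM in high glucose, against 0.443, 0.112, 0.867 and 0.708 CPM in low glucose and no call (adjusted p = 0.276). Of 13 sensors, adaptors and kinases upstream of interferon, 7 were higher and 4 were lower (53.8% and 30.8%, where 35.7% of all genes tested were higher and 37.2% lower), with a median log2 fold change of 0.26 (9 higher and 3 lower with equal library totals). The kinase IKBKE was higher, with 7.42 ± 0.720 CPM in high glucose and 2.42 ± 0.461 CPM in low glucose (1.304), as were the helicase DHX9 (1.18), the kinase-binding protein TANK (1.01) and the adaptor MYD88 (0.94). TICAM1, the adaptor of the receptor TLR3, was lower, with 18.0 ± 3.69 CPM in high glucose and 44.5 ± 3.11 CPM in low glucose (-1.28), and the DNA sensor CGAS was lower as well (-0.72), with groups that did not overlap. The adaptor TMEM173 (STING), through which CGAS signals, was higher, with 26.4 ± 0.689 CPM in high glucose and 19.8 ± 0.781 CPM in low glucose (0.40). DHX58, a relative of RIG-I, was lower (-0.73).

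Of 19 other STAT genes and regulators tested, 6 were higher (31.6%, with 35.7% of all genes tested) and 9 were lower (47.4%, with 37.2% of all genes tested), with a median of -0.09, against 10 higher and 7 lower with equal library totals. STAT5A was lower, with 9.61 ± 0.802 CPM in high glucose and 27.0 ± 2.32 CPM in low glucose (-1.40), as were the phosphatase PTPN2 (-1.02), which dephosphorylates JAK1, and the STAT5-induced inhibitor CISH (-1.003). SOCS4 (1.11), the phosphatases PTPN1 (0.93) and PTPN11 (0.86) were higher.

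Of 40 further interferon-induced genes tested, 16 were higher (40%, with 35.7% of all genes tested) and 20 were lower (50%, with 37.2% of all genes tested), with a median of -0.25, or 16 higher and 15 lower with equal library totals. LAMP3, a lysosomal membrane protein, had the largest fall on the log2(CPM + 1) scale, with 1.002 ± 0.429 CPM in high glucose and 13.6 ± 1.26 CPM in low glucose (-2.88). NMI, a partner of STAT proteins, was lower as well (-1.32). SAMD9, an antiviral factor, was higher, with 52.6 ± 7.65 CPM in high glucose and 15.9 ± 1.76 CPM in low glucose (1.66), as were the guanylate-binding protein GBP3 (1.296), the apolipoprotein L family member APOL2 (1.28) and SAMHD1 (1.28), a nucleotide hydrolase that restricts retroviruses. MX2, the paralog of MX1, was lower, with 0.260, 0.501, 0.191 and 0.360 CPM in high glucose, against 0.996, 1.01, 1.63 and 1.42 CPM in low glucose (log2 fold change -0.76 ± 0.15 SE, adjusted p = 0.000376). MX2 met the filter on low values only through low glucose and was under 3 counts in 1 library. Its call is therefore no support for that of MX1.

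**Figure D4:**
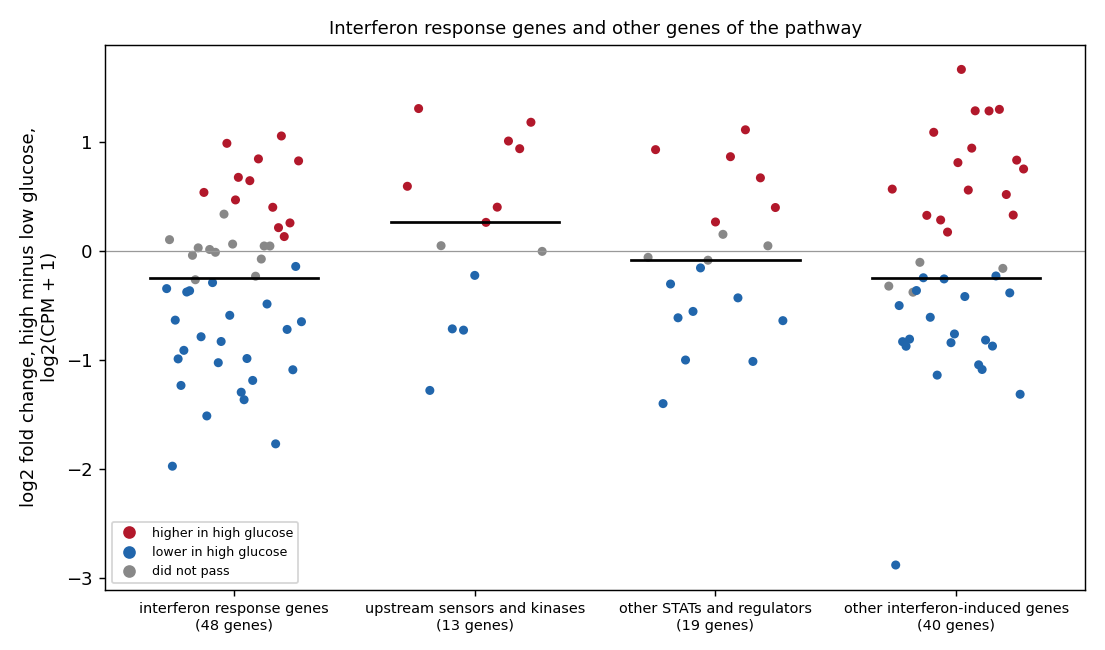
Log2 fold change (high minus low glucose, log2(CPM + 1) scale) of each tested gene in the 49-gene list and in 3 other lists of the pathway, colored by call, with black lines for medians and horizontal position within a list without meaning. The medians are -0.25, 0.26, -0.09 and -0.25 from left to right, and every list holds genes that were higher and genes that were lower.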

How the data were processed

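RNA from 8 Hs578T libraries was sequenced on an Illumina instrument. The authors deposited 1 table of normalized signal for 21077 genes, with 1 column per library. The submitters' processing notes name edgeR and hg38, and the methods of the study describe CPM with TMM factors for tumor libraries, so the deposited signal was taken as such. Its columns sum to 1017015 to 1036274 in high glucose and 1205567 to 1229021 in low glucose. The methods name Tophat with hg19 for the tumors, another build than hg38, and what aligned and counted these hg38 libraries is not given in the sources used here. As the files hold no counts, the most frequent positive value of a column was taken as the value of 1 count, which gave the estimated depth. Not all counts were whole, so no count model was used. Counting limits cover counting error only.

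Groups were taken from the treatment labels. The fit used log2(CPM + 1) of genes reaching 0.5 CPM in 2 or more libraries, with limma 3.58.1 under R 4.3.3, trended variance and no covariates. Every pair of libraries differed by more than sampling noise (mean chi-square per gene of 1.61 or more, where sampling alone gives 1). Since separate cultures are not stated, p values reflect only library-to-library spread, possibly technical. The fit was also run on simulated libraries in which few genes changed, none of them at low values. That setting differs from these data, so the run does not show how reliable the calls here are. Members and lists were chosen with earlier results of these data known. Values in every library are printed for genes that passed with a log2 fold change of at least 0.58 in either direction and for the IFITM genes. They are also printed for IFNE, the only ligand gene in the table used here. The other genes so printed (IFNAR2, STAT2, DDX58, IFIT2, IFIT3, IFIT5, IFI44, IFI27 and MX2) were chosen after their values were seen. Of the other lists, up to 6 genes were named by fold change, and those named beyond these were chosen after their values were seen. Promoters and positions are from RefSeq (GRCh38.p14), matched by symbol, with DDX58 listed there under a newer symbol. Alternatives were 2 pseudocounts, 2 filters, 2 scalings, no variance trend, a replicate block and leaving out each library.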

Additional observations from a re-analysis of the deposited data

Results flagged for a closer look

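In 4 of 96 groups of 4 libraries (48 genes in each group), 1 library stood apart from the other 3 by more than Dixon's 95% critical share of the range. Chance flags about 1 in 20 such groups. ISG20 was at 1.24 CPM in high-glucose replicate 3, against 0.601 to 0.630 CPM in the other high-glucose libraries. IRF9 was at 45.3 CPM in low-glucose replicate 1, against 48.9 to 49.5 CPM in the others. OAS2 was at 2.24 CPM in low-glucose replicate 4, against 3.90 to 4.21 CPM in the others. DDX60 was at 20.4 CPM in low-glucose replicate 4, against 15.5 to 16.3 CPM in the others. All 4 genes kept their direction and passed without that library.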

How the results depend on the processing

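Of the 36 interferon response genes that passed, 31 kept direction and call in all 16 alternatives, and IRF2, IFNGR1, IFI6, STAT2 and DDX58 did not. The count of calls was 34 to 36 without single libraries, 39 with quantile normalization and 37 with the replicate block. Of the genes that had not passed, IFNAR2 passed in 5 alternatives, TRIM21 in 2, and IRF3, IFI35, IFITM2 and BST2 in 1 each. With equal library totals, 10 of the other STAT genes and regulators were higher, against 6 as deposited, as that scaling raised fold changes by 0.20 in the median. It also turned DDX58 to 0.094, OAS1 to 0.077, OAS3 to 0.021 and SP110 to 0.15. Quantile normalization turned IFIT2 to -0.055, IFITM1 to -0.21 and USP18 to -0.058, and a pseudocount of 5 CPM turned IFITM1 to -0.0029. The cause of these turns was not tested, and of these genes only DDX58 had passed. Without single libraries the fold change spanned 0 for IRF3 (-0.037 to 0.14), IFI35 (-0.0061 to 0.13), IFIT2 (-0.042 to 0.075), IFITM1 (-0.12 to 0.14), OAS1 (-0.12 to 0.075), OAS3 (-0.10 to 0.021) and USP18 (-0.0060 to 0.14), none of which had passed. Same-numbered libraries of the 2 groups deviated together weakly at most (correlations of -0.027, 0.11, 0.012 and 0.084). Libraries with different numbers had correlations of -0.15 to 0.076, so 0.11 and 0.084 lay above that range. The numbers were not read as pairs in the main fit. Under the replicate block 11494 of all genes passed, against 11350 without it, and IFNAR2 passed as higher (0.34, adjusted p = 0.0338). Low depth bears most on IFITM1, OAS3, OASL and IFI27, which were under 3 counts in at least 1 library.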
